A study of Homo sapiens with 16 samples.

Results

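The collagen genes were followed through the activin-driven differentiation of H9, an established human embryonic stem cell line, toward endoderm. Members were all array rows whose gene symbol names a collagen alpha chain (COL, a type number, A and a chain number), with 1 row per gene. There were 42 such rows for 41 genes among 18495 rows (probe sets summarised per gene), and the row with the highest mean was kept. Of the 41 genes, 38 had a row with their own symbol alone. The other 3 shared a row with a gene of another symbol, so they are counted here and not named. The set held 11 fibrillar collagens, 9 basement membrane collagens and 21 other collagens. A total of 9 members were dim, meaning a mean log2 intensity in the lowest 25% of all rows (below 5.83).

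Expression was measured on exon arrays (Human Exon 1.0 ST) in 14 biological samples on 16 arrays. Day 0 comprised 4 samples of undifferentiated H9 cells at passage 40-50, kept on mouse embryonic fibroblast feeders or on Matrigel in medium conditioned by such fibroblasts, with 20% knockout serum replacement and bFGF at 8 ng/ml. The 3 samples of day 1, 3 of day 3 and 4 of day 5 were grown in RPMI-1640 with activin A at 100 ng/ml, while fetal bovine serum was raised from 0 through 0.2 to 2%. Activin A is a ligand that signals through the nodal pathway. Activin, bFGF, serum replacement, medium, serum and time changed together between day 0 and the later days and cannot be told apart. The same holds for any change of feeders or Matrigel. All samples came from the same cell line, and the labels call them biological replicates without saying how cultures were separated, so p-values measure the spread between these samples. At days 0 and 5, replicate 4 was run on 2 arrays, which were averaged.

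Collagens are trimers of alpha chains wound into a triple helix, and in several types chains of different genes combine. Fibrillar collagens assemble into banded fibrils, type IV collagen forms the network of basement membranes, and the other collagens include chains that decorate fibrils, form beaded filaments or hexagonal nets, or span the cell membrane. In the early embryo, type IV collagen lies in the basement membranes that epithelia build and that cells cross as germ layers form, and Matrigel itself is a basement membrane extract.

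All 8 definitive endoderm markers were called higher at day 5 than at day 0. All 8 stem cell markers had a lower mean at day 5, and 3 of them were called. The array labelled day 3 replicate 2 was unlike the rest of its group (median correlation over all rows 0.83), as was day 5 replicate 2 to a lesser degree (0.858). For the remaining samples this value was 0.901 to 0.962. In day 3 replicate 2 the endoderm gene SOX17 had a log2 intensity of 5.52, against 11.21 and 11.37 in the other day 3 samples. Its mean log2 intensity over 8 primitive streak markers was 6.33, inside the day 0 range of 6.09 to 6.83, while the other day 3 samples were at 10.07 and 10.02. Over the 8 stem cell markers it was 11.58, nearer to day 0 (11.72 to 12.16) than to the other day 3 samples (10.46 and 10.48). By these lists the sample resembled undifferentiated cells more than its own group, and every day 3 mean over all samples includes it. All groups share 1 estimate of spread, so it also enters the SE of the other comparisons. Without it the SE of the day 5 difference from day 0 was smaller for 32 of the 38 named members and larger for 6, so counts are given with and without it.

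At day 5, 4 of the 41 collagens differed from day 0 past the test, all of them in the class of other collagens. COL9A2, COL21A1 and COL19A1 rose, and COL14A1 fell. These are chains of collagens that sit on fibril surfaces or at the edges of basement membranes and do not form banded fibrils themselves. Other fibril-associated chains were not called, among them COL12A1 (-0.96), COL16A1 (-0.68), COL9A1 (-0.44) and COL9A3 (0.83). No fibrillar (0 of 11) and no basement membrane collagen (0 of 9) passed. The called share of the members was 9.76%, against 5.46% of all 18495 rows. At that share of all rows, 0 calls among 11 or 9 members do not set these classes apart. By direction, 3 members were called higher (2.56% of all rows) and 1 was called lower (2.89% of all rows). Values are log2(intensity + 1), differences are ± standard error (SE) of the limma fit over all 4 groups, and a call is a Benjamini-Hochberg adjusted p under 0.05 over all rows.

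COL9A2 encodes the alpha-2 chain of type IX collagen, which coats fibrils of type II collagen in cartilage and the vitreous. Its log2 intensity, in replicate order here and throughout, was 6.52, 6.55, 6.77 and 6.59 at day 0 and 8.41, 7.52, 9.03 and 8.54 at day 5. Between these days it was 6.79, 7.06 and 6.87 at day 1 and 7.60, 6.39 and 7.24 at day 3. Every day 5 sample lay above every day 0 sample, and day 5 replicate 2 was the lowest of its group. COL9A2 rose by 1.77 ± 0.32 at day 5 (adjusted p 0.00626), a 3.40-fold change. Over all 8 leave-one-out fits, each without 1 day 0 or day 5 sample, its difference ran from 1.55 to 2.05 and stayed past the test. RNA was taken from whole cultures, so more cells with a transcript and more transcript per cell cannot be told apart.

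COL21A1, a chain of a fibril-associated collagen of extracellular matrix, had its lowest group mean at day 1 and its highest at day 5. Its log2 intensity was 5.47, 6.08, 5.76 and 5.29 at day 0, 5.26, 5.04 and 4.43 at day 1, and 5.55, 5.12 and 5.05 at day 3. At day 5 it was 7.63, 6.92, 8.79 and 7.52. The 4 day 5 samples lay above all 10 earlier samples. COL21A1 rose by 2.06 ± 0.36 against day 0 (adjusted p 0.00488, 4.18-fold) and by 2.80 ± 0.39 against day 1 (adjusted p 0.00231, 6.98-fold). These comparisons share the day 5 samples.

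COL14A1, the chain of type XIV collagen, a fibril-associated collagen that binds the small proteoglycan decorin, went the other way. Its log2 intensity was 8.14, 8.12, 7.26 and 7.46 at day 0 and 7.21, 7.19 and 6.42 at day 1. It was 5.88, 6.65 and 5.64 at day 3 and 5.15, 5.19, 5.44 and 6.05 at day 5. The day 0 samples lay above those of each later day, and the day 5 samples lay below those of day 1. COL14A1 fell by 2.29 ± 0.32 at day 5 against day 0 (adjusted p 0.00131, 4.89-fold). In the comparison of day 3 with day 0 its difference was -1.69 ± 0.35 (adjusted p 0.163) with all samples and -1.98 ± 0.36 (adjusted p 0.00993) without day 3 replicate 2.

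COL19A1, a rare fibril-associated chain found near basement membranes, was dim in these cells. Its log2 intensity was 3.55, 3.44, 3.73 and 3.15 at day 0 and 4.49, 4.42, 4.33 and 4.39 at day 5, so the day 5 samples were above all day 0 samples in a narrow band. It rose by 0.94 ± 0.22 (adjusted p 0.0263). This call was lost when any 1 day 0 or day 5 sample other than day 0 replicate 3 was left out, with adjusted p values up to 0.0894, and with a pseudocount of 16 the difference shrank to 0.47 (adjusted p 0.131).

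**Figure D1:**
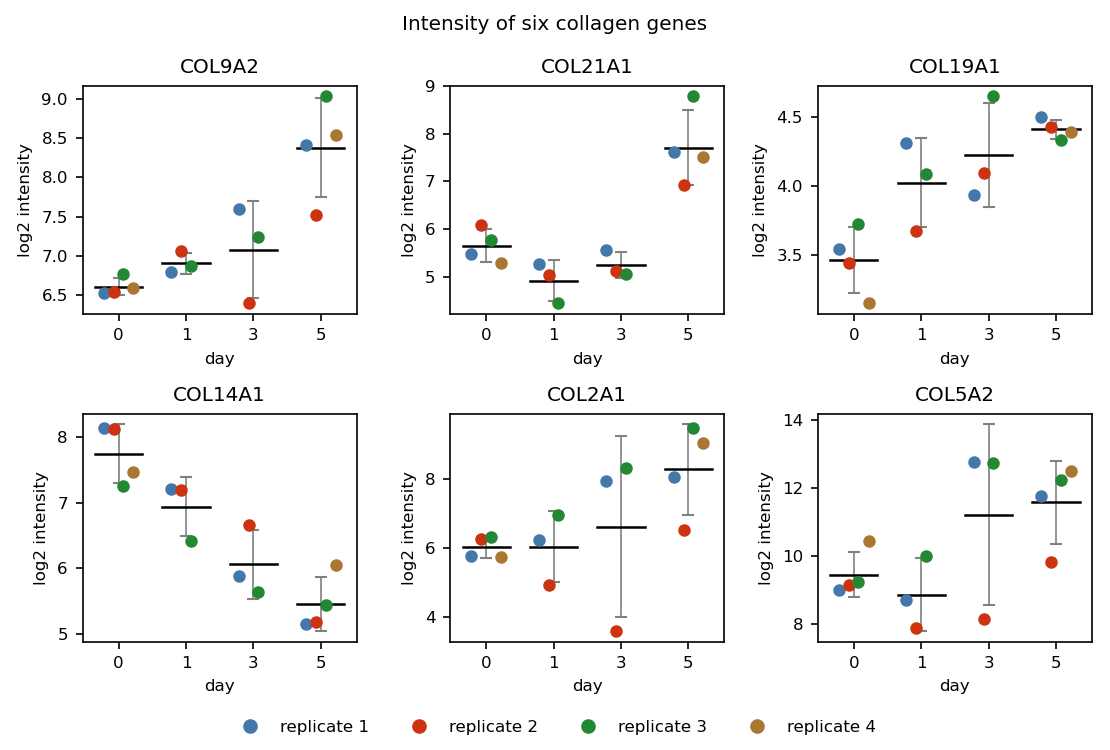
Log2 intensity of 6 collagen genes (vertical axis, own scale per panel) at days 0, 1, 3 and 5, with 1 point per biological sample coloured by replicate number, a line at the group mean and bars of ± 1 SD. COL9A2, COL21A1 and COL19A1 are higher and COL14A1 is lower in every day 5 sample than in every day 0 sample, while COL2A1 and COL5A2 spread widely at day 3 because replicate 2 lies far below the others.

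The bases just upstream of 3 called genes, COL9A2, COL19A1 and COL21A1, are given for reference, from 250 before to 50 after a transcript start, as RefSeq places it on GRCh38.p14. Capitals mark the GC box GGGCGG and the CCAAT box CCAAT on either strand, and each line reads 5′ to 3′ along the gene's strand. COL9A2 lies on the minus strand at chr1:40317237-40317536, COL19A1 on the plus strand at chr6:69866306-69866605, and the outermost of 3 COL21A1 starts on the minus strand at chr6:56394079-56394378.
COL9A2: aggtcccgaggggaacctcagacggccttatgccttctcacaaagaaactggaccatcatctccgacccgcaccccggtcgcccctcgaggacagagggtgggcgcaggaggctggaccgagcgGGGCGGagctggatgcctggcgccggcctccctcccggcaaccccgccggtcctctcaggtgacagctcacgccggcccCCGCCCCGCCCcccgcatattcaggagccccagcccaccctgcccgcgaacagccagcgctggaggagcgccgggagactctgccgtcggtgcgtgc
COL19A1: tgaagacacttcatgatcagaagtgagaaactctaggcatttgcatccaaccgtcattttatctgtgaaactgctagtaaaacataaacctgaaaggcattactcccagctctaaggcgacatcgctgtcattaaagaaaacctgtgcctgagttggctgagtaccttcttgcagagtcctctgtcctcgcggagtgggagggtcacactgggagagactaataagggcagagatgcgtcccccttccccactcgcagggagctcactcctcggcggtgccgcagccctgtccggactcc
COL21A1: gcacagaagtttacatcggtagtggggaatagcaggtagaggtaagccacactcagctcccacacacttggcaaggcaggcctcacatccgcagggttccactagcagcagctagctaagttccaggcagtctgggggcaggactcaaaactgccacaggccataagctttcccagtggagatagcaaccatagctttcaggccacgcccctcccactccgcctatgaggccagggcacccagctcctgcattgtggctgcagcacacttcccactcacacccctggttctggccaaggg

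The COL9A2 window held 3 GC box matches, of which a pair overlaps on the opposite strand, with a GC content of 71.7%. The COL19A1 and COL21A1 windows held neither box. Windows were found for 26 of the 38 named members, 37 in all because some genes have several starts. Over these 37 windows, GGGCGG was present in 51.4% (45% of all 35116 RefSeq windows of this length) and CCAAT in 32.4% (34.6%). Other strings were searched on both strands. TATAAA was in 10.8% of the collagen windows (11.5% of all), the GATA string AGATAA in 8.11% (10.3%), the SOX string AACAAT in 5.41% (10.1%), and the forkhead string TGTTTAC and the SMAD palindrome GTCTAGAC were in 0% (3.42% and 0.202%). None of these strings contains another, and a match describes letters only.

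A total of 6 members had day 5 samples that did not overlap those of day 0, which is 14.6% of the members and 14.6% of all rows. Besides the 4 called genes these were COL2A1 and COL4A6, described with their classes. The median difference at day 5 against day 0 was 0.21 over the 41 members, with 23 above 0, against -0.02 over all rows. By class it was 0.46 for fibrillar collagens (7 of 11 above 0), 0.24 for basement membrane collagens (7 of 9) and -0.28 for other collagens (9 of 21). An unadjusted p under 0.05 was found for 10 of 41 members and 17.2% of all rows. Without day 3 replicate 2 the same comparison called 7 members (8.73% of all rows), the 4 above with COL2A1, COL5A2 and COL25A1. Without replicate 2 of both day 3 and day 5 it called 14 (9.92% of all rows), of which 4 were fibrillar, 3 were of basement membranes and 7 were other collagens.

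**Figure D2:**
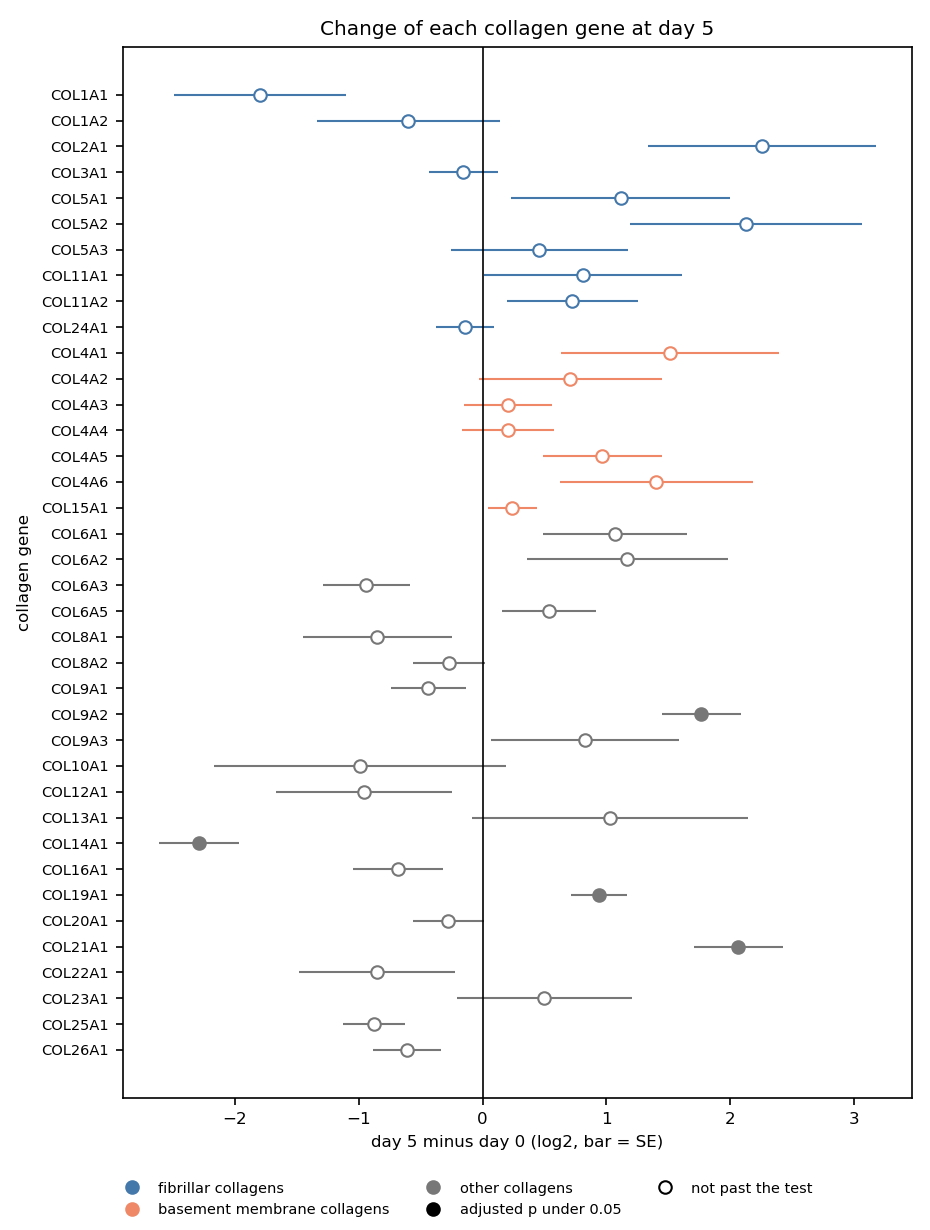
Difference in log2 intensity between day 5 and day 0 (horizontal axis) for the 38 named collagens, grouped and coloured by class, with bars of ± 1 SE from limma and filled points for genes past the test. The 4 filled points, all in the class of other collagens, run from -2.29 for COL14A1 to 2.06 for COL21A1, and several open points of fibrillar and basement membrane collagens lie as far from 0 with wider bars.

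Among the fibrillar collagens, the largest differences at day 5 were those of COL2A1 and COL5A2, above day 0, and of COL1A1, below it. None passed the test when all samples were used with equal weight and no replicate block. COL2A1 encodes the chain of type II collagen, the main fibril of cartilage, which is also transcribed in several other embryonic tissues. Its log2 intensity was 5.79, 6.27, 6.32 and 5.75 at day 0 and 8.05, 6.54, 9.49 and 9.07 at day 5. The day 5 samples lay above those of day 0, with replicate 2 only just above. At day 3 it was 7.94, 3.60 and 8.32, with replicate 2 as the lowest of all 14 samples. COL2A1 differed by 2.26 ± 0.92 at day 5 (adjusted p 0.214). With day 3 replicate 2 left out the difference was the same and its SE 0.58, and the adjusted p was 0.0312.

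COL5A2, the alpha-2 chain of type V collagen, which starts and sizes fibrils, had log2 intensities of 8.99, 9.15, 9.23 and 10.45 at day 0 and 8.70, 7.88 and 10.01 at day 1. They were 12.78, 8.15 and 12.74 at day 3 and 11.77, 9.81, 12.23 and 12.51 at day 5. Day 3 replicates 1 and 3 and day 5 replicates 1, 3 and 4 lay above every day 0 and day 1 sample, while replicate 2 of both days lay among the day 0 and day 1 values. COL5A2 differed by 2.13 ± 0.94 at day 5 against day 0 (adjusted p 0.263) and by 1.76 ± 1.01 at day 3 (adjusted p 0.701). When day 3 replicate 2 was left out these were 2.13 ± 0.60 (adjusted p 0.0465) and 3.30 ± 0.73 (adjusted p 0.0301).

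Its partner COL5A1 differed by 1.11 ± 0.89 at day 5 (adjusted p 0.607), with values of 7.27, 7.62, 7.18 and 8.83 at day 0 and 8.67, 6.70, 9.58 and 10.40 at day 5. The third type V chain, COL5A3, ran against the others across samples. Its log2 intensity was 8.44, 11.18 and 8.72 at day 3 and 9.63, 11.46, 8.59 and 8.76 at day 5, so replicate 2 was the highest of both days. At day 0 it was 9.02, 9.51, 9.69 and 8.38, where replicate 4 was the lowest. COL5A3 differed by 0.46 ± 0.72 at day 5 (adjusted p 0.814), and by -0.16 without day 5 replicate 2. COL11A1, a type XI chain that combines with COL11A2 and the COL2A1 product, differed by 0.81 ± 0.80 (adjusted p 0.684) and COL11A2 by 0.72 ± 0.53 (adjusted p 0.571). Without replicate 2 of days 3 and 5, COL2A1 (2.84, adjusted p 0.00228), COL5A2 (2.71, adjusted p 0.00401), COL5A1 (1.83, adjusted p 0.0363) and COL11A1 (1.58, adjusted p 0.0440) were called higher.

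Type I collagen, the main fibril of bone, skin and tendon, was not higher at any later day in the group means. The log2 intensity of COL1A1 was 10.71, 10.58, 10.24 and 11.87 at day 0 and 9.24, 8.27 and 9.24 at day 1. It was 10.17, 9.21 and 9.45 at day 3 and 8.90, 6.83, 9.37 and 11.10 at day 5. The day 1 and day 3 samples lay below all day 0 samples, and day 5 overlapped day 0 through replicate 4. COL1A1 differed by -1.80 ± 0.69 at day 5 (adjusted p 0.184), and without day 5 replicate 4 by -2.48 (adjusted p 0.0309). With a replicate block its adjusted p was 0.0293. Its partner COL1A2, from 9.19 to 10.49 at day 0 and 7.19 to 11.44 at day 5, differed by -0.60 ± 0.74 (adjusted p 0.759), and by 0.08 without day 5 replicate 2. COL3A1, the chain of type III collagen, varied little, with group means from 5.89 to 6.09.

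No basement membrane collagen passed the test when all samples were used with equal weight and no replicate block. Their mean differences ran 1 way between day 1 and day 5. All 9 had a higher mean at day 5 than at day 1, with a median difference of 0.61 against -0.06 over all rows, and 8 of 9 had a lower mean at day 1 than at day 0, with a median of -0.36. COL4A1 and COL4A2 encode the chains of the most widespread type IV trimer. COL4A1 had log2 intensities of 8.96, 9.14, 8.92 and 10.33 at day 0 and 9.11, 7.73 and 9.63 at day 1. They were 10.93, 7.40 and 11.03 at day 3 and 10.68, 8.65, 12.17 and 11.90 at day 5. Replicate 2 was the lowest sample of each treated day, and the other day 5 samples lay above all day 0 samples. COL4A1 differed by 1.51 ± 0.88 at day 5 against day 0 (adjusted p 0.438). COL4A2, with 9.32, 9.15, 9.62 and 10.74 at day 0 and 10.03, 8.41, 11.67 and 11.54 at day 5, differed by 0.71 ± 0.74 (adjusted p 0.708).

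COL4A5 and COL4A6 encode chains of a type IV trimer of epithelial and smooth muscle basement membranes. COL4A6 had the tightest day 0 values of the named members, at 7.47, 7.41, 7.43 and 7.43 (SD 0.03). It had 7.50, 6.63 and 7.65 at day 1, 9.34, 5.61 and 10.12 at day 3 and 8.75, 7.50, 9.80 and 9.31 at day 5. Day 5 did not overlap day 0, although replicate 2 cleared it only narrowly, and day 3 replicate 2 was the lowest of all samples. COL4A6 differed by 1.40 ± 0.78 at day 5 (adjusted p 0.414) and by 0.91 ± 0.84 at day 3 (adjusted p 0.856). Without day 3 replicate 2 the day 3 difference was 2.29 ± 0.52 (adjusted p 0.0339). COL4A5, with 7.61, 7.78, 7.13 and 7.82 at day 0 and 8.47, 7.75, 8.99 and 9.00 at day 5, differed by 0.97 ± 0.48 (adjusted p 0.334). Without replicate 2 of days 3 and 5, COL4A1 (2.25, adjusted p 0.0166), COL4A5 (1.23, adjusted p 0.0204) and COL4A6 (1.85, adjusted p 0.00312) were called higher at day 5 than at day 0. COL4A3 and COL4A4, chains of the trimer of mature kidney glomeruli, and COL15A1 were dim, with group means from 4.36 to 5.05.

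Both pairs of type IV genes shown here lie head to head, so their upstream windows share bases. They are shown because the paired chains are compared within samples. The windows of COL4A3 and COL4A4, with starts 419 bases apart, share 82 bases and are not shown. COL4A1 is on the minus strand at chr13:110307108-110307407 and COL4A2 on the plus strand at chr13:110307034-110307333, with starts 127 bases apart and 226 bases shared. COL4A5 is on the plus strand at chrX:108439588-108439887 and the outermost of 2 COL4A6 starts on the minus strand at chrX:108439409-108439708, with 380 bases between starts and 121 bases shared. Sequences and capitals are as above (RefSeq, GRCh38.p14).
COL4A1: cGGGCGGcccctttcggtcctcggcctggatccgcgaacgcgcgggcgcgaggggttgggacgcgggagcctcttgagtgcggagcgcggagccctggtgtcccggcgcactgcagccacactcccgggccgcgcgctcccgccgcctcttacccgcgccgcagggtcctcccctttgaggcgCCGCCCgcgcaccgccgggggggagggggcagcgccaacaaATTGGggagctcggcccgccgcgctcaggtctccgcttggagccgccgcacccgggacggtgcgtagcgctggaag
COL4A2: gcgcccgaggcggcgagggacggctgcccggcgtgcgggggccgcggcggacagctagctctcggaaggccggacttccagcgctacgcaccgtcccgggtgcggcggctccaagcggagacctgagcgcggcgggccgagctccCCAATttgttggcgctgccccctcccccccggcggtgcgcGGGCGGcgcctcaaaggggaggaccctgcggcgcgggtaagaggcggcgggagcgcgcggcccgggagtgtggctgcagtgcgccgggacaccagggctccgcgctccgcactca
COL4A5: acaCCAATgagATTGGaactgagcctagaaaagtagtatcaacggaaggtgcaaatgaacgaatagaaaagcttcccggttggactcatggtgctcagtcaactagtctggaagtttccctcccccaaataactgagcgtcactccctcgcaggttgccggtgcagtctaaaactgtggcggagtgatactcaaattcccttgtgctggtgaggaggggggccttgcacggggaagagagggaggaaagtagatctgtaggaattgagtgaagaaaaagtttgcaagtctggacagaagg
COL4A6: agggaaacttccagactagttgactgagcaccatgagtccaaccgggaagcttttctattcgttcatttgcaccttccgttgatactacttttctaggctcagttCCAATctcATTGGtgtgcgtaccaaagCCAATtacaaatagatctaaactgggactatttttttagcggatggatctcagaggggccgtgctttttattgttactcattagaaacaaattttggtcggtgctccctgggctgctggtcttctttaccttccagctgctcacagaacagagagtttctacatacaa

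The COL4A1 and COL4A2 windows hold 76.7% and 77.7% G and C, and they share 1 CCAAT box. The COL4A5 and COL4A6 windows hold 49.3% and 43.7%, with no GC box, and share an inverted pair of CCAAT boxes.

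Type VI collagen forms beaded filaments around cells from the chains of COL6A1, COL6A2 and COL6A3. The first pair of chains and COL6A3 differed in opposite directions at day 5, without passing the test. COL6A1 had log2 intensities of 9.65, 9.44, 9.74 and 9.65 at day 0, 11.92, 9.22 and 11.76 at day 3, and 10.99, 9.34, 11.42 and 11.00 at day 5. Replicate 2 of days 3 and 5 lay below all day 0 samples and the others above them. COL6A1 differed by 1.07 ± 0.58 at day 5 (adjusted p 0.399) and 1.34 ± 0.63 at day 3 (adjusted p 0.59). Without day 3 replicate 2 the day 3 difference was 2.22 ± 0.50 (adjusted p 0.0324). COL6A2 differed by 1.17 ± 0.81 at day 5 (adjusted p 0.54). COL6A3, with 6.52, 6.66, 6.01 and 6.66 at day 0 and 5.31, 4.74, 5.76 and 6.31 at day 5, differed by -0.94 ± 0.35 (adjusted p 0.167). Without replicate 2 of days 3 and 5, COL6A1 (1.52, adjusted p 0.00503) and COL6A2 (1.70, adjusted p 0.00287) were called higher at day 5.

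Of the other type IX chains, COL9A1 was dim and differed by -0.44 ± 0.30 at day 5 (adjusted p 0.542). COL9A3 had log2 intensities of 9.31, 8.96, 8.27 and 10.08 at day 0 and 9.61, 7.98, 11.14 and 11.19 at day 5, which overlap. It differed by 0.83 ± 0.76 (adjusted p 0.663). COL25A1, a membrane-spanning collagen of neurons, had 6.83, 7.12, 7.00 and 7.42 at day 0 and 5.85, 5.91, 6.21 and 6.89 at day 5. Only replicate 4 of day 5 reached the day 0 range. COL25A1 differed by -0.88 ± 0.25 (adjusted p 0.0629), and the adjusted p was 0.0471 without day 3 replicate 2 and 0.0166 without day 5 replicate 4. With a replicate block it was 0.0180. The membrane-spanning COL13A1 had the widest day 3 values, at 8.48, 2.65 and 8.11, against 4.89 to 5.85 at day 0. The remaining named members did not pass in any comparison when samples were weighted equally. COL10A1, COL16A1, COL20A1, COL24A1, COL26A1, COL8A2 and COL6A5 differed by -0.99 (COL10A1) to 0.54 (COL6A5) at day 5. COL10A1, the type X chain of growth plate cartilage, was dim and had the widest day 5 values of the 38 named members, at 6.53, 1.83, 6.64 and 6.89. Without day 5 replicate 2 it differed by 0.23. COL26A1 differed by -0.61 ± 0.27 (adjusted p 0.273) and COL16A1, a fibril-associated chain, by -0.68 ± 0.36 (adjusted p 0.384). The 3 rows with several symbols differed by -1.42 to 0.0015 at day 5, and none passed with all samples and no replicate block.

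**Figure D3:**
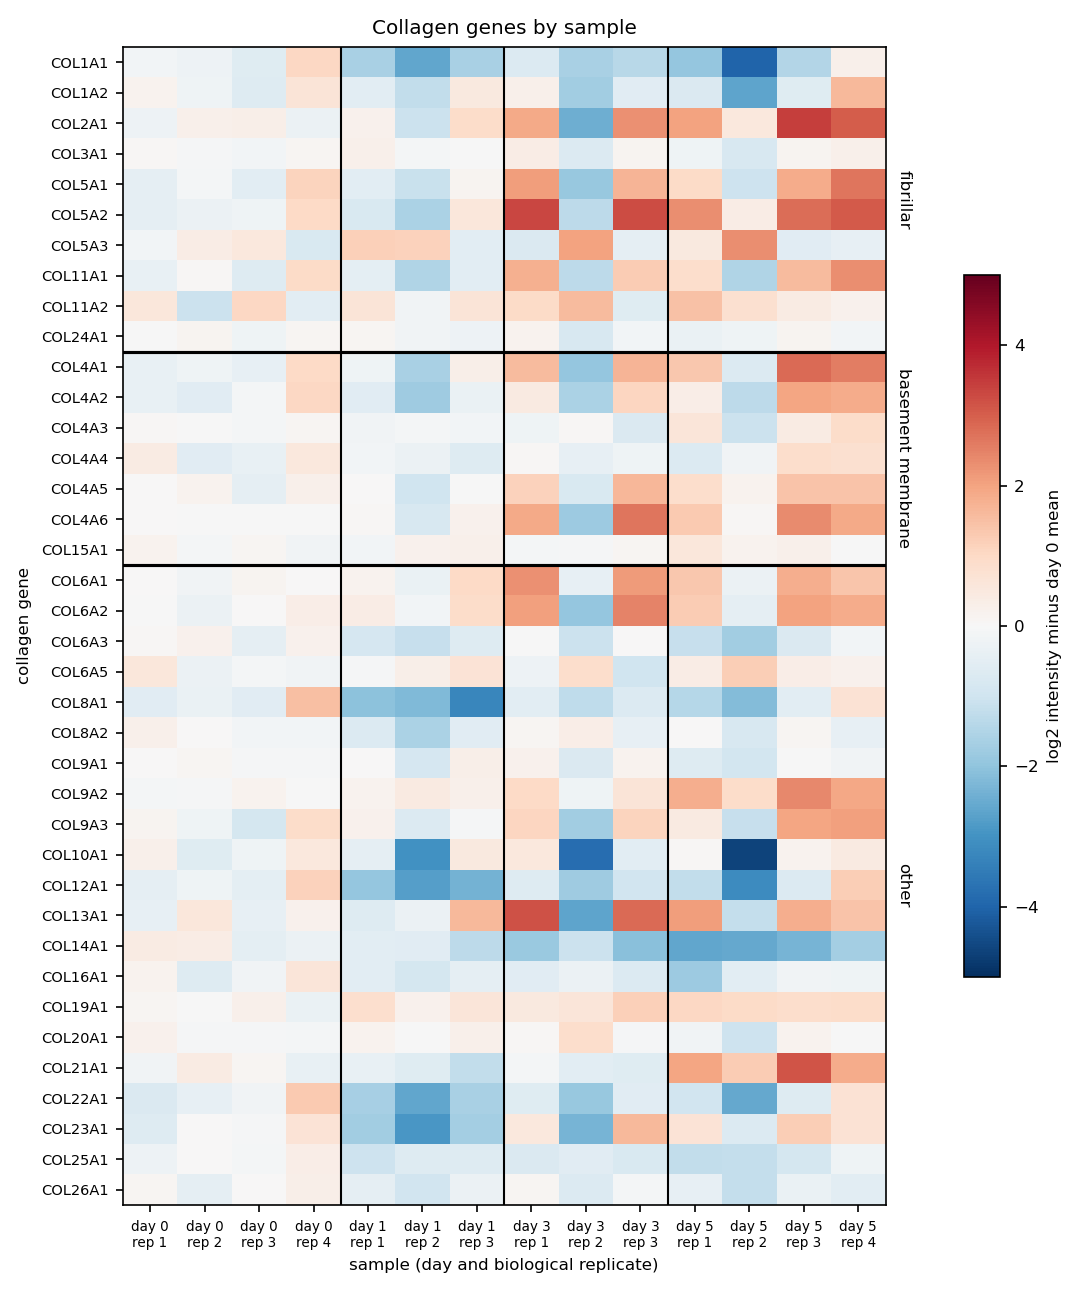
Log2 intensity minus the day 0 mean of the same gene (colour scale in log2 units, red above and blue below) for the 38 named collagens in rows, grouped by class, and the 14 biological samples in columns. The column of replicate 2 is blue for most genes at days 1, 3 and 5, the row of COL5A3 runs against it, and COL14A1 and COL21A1 stand out as uniform at day 5.

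Day 1 was compared with day 0 to see which collagens differed first. No collagen passed the limma test (0 of 41, against 0.00541% of all rows). The count of members was also 0 without day 3 replicate 2 (0.249% of all rows). An unadjusted p under 0.05 was found for 11 of the 41 members, against 6.03% of all rows. Of the 41 differences, 29 were below 0, with a median of -0.42 against 0.03 over all rows. The day 1 and day 0 samples did not overlap for 12 members, or 29.3%, against 11.5% of all rows. For 11 of these day 1 was the lower group (6.62% of all rows), and 9 of the 11 were other collagens.

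COL8A1, a chain of the hexagonal nets of type VIII collagen, had the largest day 1 difference. It had log2 intensities of 8.11, 8.37, 8.11 and 10.19 at day 0 and 6.65, 6.50 and 5.42 at day 1, with no overlap. It differed by -2.50 ± 0.65 (adjusted p 0.27). COL12A1, the chain of type XII collagen on the surface of type I fibrils, had 8.36, 8.60, 8.34 and 9.96 at day 0 and 6.89, 6.07 and 6.45 at day 1. It differed by -2.35 ± 0.77 (adjusted p 0.497). In both genes day 0 replicate 4 lay well above the other day 0 samples, and the day 1 samples lay below all of them.

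COL23A1, a membrane-spanning collagen, had log2 intensities of 6.64, 7.32, 7.22 and 8.00 at day 0 and 5.56, 4.39 and 5.61 at day 1. At day 5 they were 7.99, 6.62, 8.54 and 8.02, above all day 1 samples and overlapping day 0. COL23A1 differed by -2.11 ± 0.76 at day 1 against day 0 (adjusted p 0.609) and by 2.61 ± 0.76 at day 5 against day 1 (adjusted p 0.091). The latter was 2.61 ± 0.49 (adjusted p 0.00801) without day 3 replicate 2. The type XXII chain COL22A1, found at tissue junctions, differed by -1.97 ± 0.68 at day 1 (adjusted p 0.561) and COL1A1 by -1.93 ± 0.75 (adjusted p 0.676), each without overlap. The same order held for COL8A2, COL14A1, COL21A1, COL25A1, COL6A3 and 1 row with several symbols. COL9A2 was the only member whose day 1 samples all lay above day 0 (4.86% of all rows), by 0.30 ± 0.35 (adjusted p 1.00).

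At day 3, 0 of 41 members passed the limma test against day 0 (0.027% of all rows), and 4 had an unadjusted p under 0.05 (8.56% of all rows). Without replicate 2, which leaves 2 day 3 samples, 4 passed (3.19% of all rows). COL5A2, COL4A6 and COL6A1 were then higher and COL14A1 lower. The groups of 6 members did not overlap with all samples (9.82% of all rows), and those of 21 did not without replicate 2 (32.3% of all rows).

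Between day 1 and day 5 activin was present throughout, but serum was raised over the treated days, so serum and time cannot be told apart. In this comparison 3 members passed the test (3.33% of all rows). COL21A1 rose as given above. COL9A2 rose by 1.47 ± 0.35 (adjusted p 0.0359), and COL14A1 fell by 1.48 ± 0.35 (adjusted p 0.0358). The COL9A2 call was lost without any 1 day 1 or day 5 sample other than day 5 replicate 2, with adjusted p values up to 0.164. The COL14A1 call was lost without day 1 replicate 1 or 2 or day 5 replicate 1, 2 or 3, with adjusted p values up to 0.184. In a fit of these 2 groups alone COL21A1 was the 1 member called (2.15% of all rows). Without day 3 replicate 2 the comparison called 5 members (6.11% of all rows), adding COL23A1 and COL5A2 (2.72 ± 0.65, adjusted p 0.0265). The groups did not overlap for 6 members (16.1% of all rows). The median difference was 0.56 over all members, with 30 of 41 above 0, and 0.13, 0.61 and 0.68 for the fibrillar, basement membrane and other classes.

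A single sample per day moved most collagens together. Replicate 2 was the lowest sample of its day for 29 of 41 members at day 1, 28 at day 3 and 30 at day 5. Those shares were 70.7%, 68.3% and 73.2%, against 42.1%, 44.8% and 39.0% of all rows. The median distance of the members from the day 0 means was -0.90, -1.09 and -0.93 in these 3 samples. In the other samples of days 1, 3 and 5 it ran from -0.23 to 0.89. At day 0, replicate 4 was the highest sample for 25 members (61.0%, against 26.2% of all rows), with a median distance of 0.30.

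These movements ran through all 3 classes. In day 3 replicate 2 the median distance from day 0 was -1.32 for fibrillar, -1.57 for basement membrane and -0.70 for other collagens. In day 5 replicate 2 it was -0.79, -0.68 and -1.04, and in day 5 replicate 4 it was 1.61, 0.98 and 0.71. The median of all rows stayed between -0.04 and 0.03 in every sample. The definitive endoderm list had a mean log2 intensity of 7.37 in day 3 replicate 2 and up to 11.58 in the other day 3 samples, while at day 5 it ran from 11.01, in replicate 2, to 11.90. The part of differentiation stage or of culture conditions in the low collagen values of replicate 2 was not tested. Repeat arrays of 1 sample differed by a median of 0.12 over the named members at both day 0 and day 5, while the median SD between samples was 0.42 and 0.85. The largest gaps between repeat arrays were 1.42 for COL11A2 at day 0 and 1.33 for COL13A1 at day 5.

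**Figure D4:**
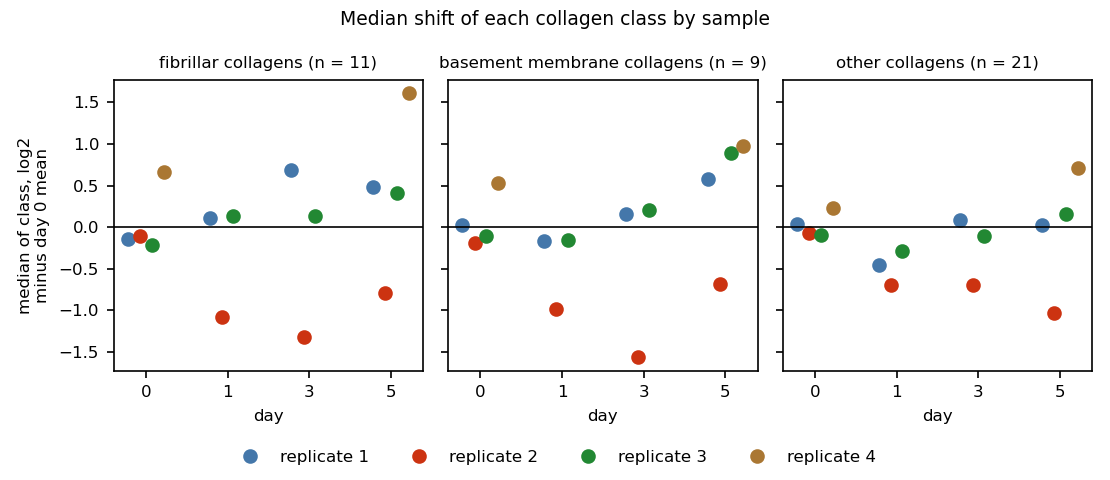
Median over each collagen class of log2 intensity minus the gene's day 0 mean (vertical axis) in each of 14 samples, by day, with points coloured by replicate number and panels for the 11 fibrillar, 9 basement membrane and 21 other collagens. Replicate 2 of days 1, 3 and 5 lies below 0 in all 3 panels, down to -1.57, and day 5 replicate 4 is the highest in all 3.

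The difference between partner chains within a sample was compared between day 5 and day 0 with a two-sided exact permutation test over samples (4 against 4, smallest possible p 0.0286). Probes differ in brightness, so the size of such a difference has no meaning by itself and only its change does. Of 16 pairs tested, 6 had groups that did not overlap, each with an exact p of 0.0286 and a Benjamini-Hochberg value of 0.0762 over the 16, so none passed after adjustment.

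COL1A1 minus COL1A2 was 0.70, 0.95, 1.05 and 1.38 at day 0 and -0.19, -0.35, 0.16 and -0.34 at day 5, a change of -1.20. COL4A1 minus COL4A2 was -0.36, -0.005, -0.70 and -0.41 at day 0 and 0.65, 0.25, 0.50 and 0.36 at day 5, a change of 0.81. In both pairs day 5 replicate 2, low in each gene alone, lay close to the other day 5 samples. COL5A2 minus COL5A1 changed by 1.01, with the groups only just apart (up to 2.06 at day 0 and from 2.11 at day 5).

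The type VI chains split in a similar way. COL6A1 minus COL6A3 was 3.13, 2.78, 3.73 and 2.98 at day 0 and 5.68, 4.61, 5.66 and 4.69 at day 5, a change of 2.01. COL6A2 minus COL6A3 changed by 2.11, while COL6A1 minus COL6A2 changed by -0.10 (exact p 0.657). COL9A2 minus COL9A1 was 0.59, 0.52, 0.94 and 0.73 at day 0 and 3.15, 2.53, 3.13 and 2.80 at day 5, a change of 2.20, although COL9A1 is dim. COL9A2 minus COL9A3 changed by 0.94 (exact p 0.171) and COL4A6 minus COL4A5 by 0.43 (exact p 0.171), both with overlapping groups.

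**Figure D5:**
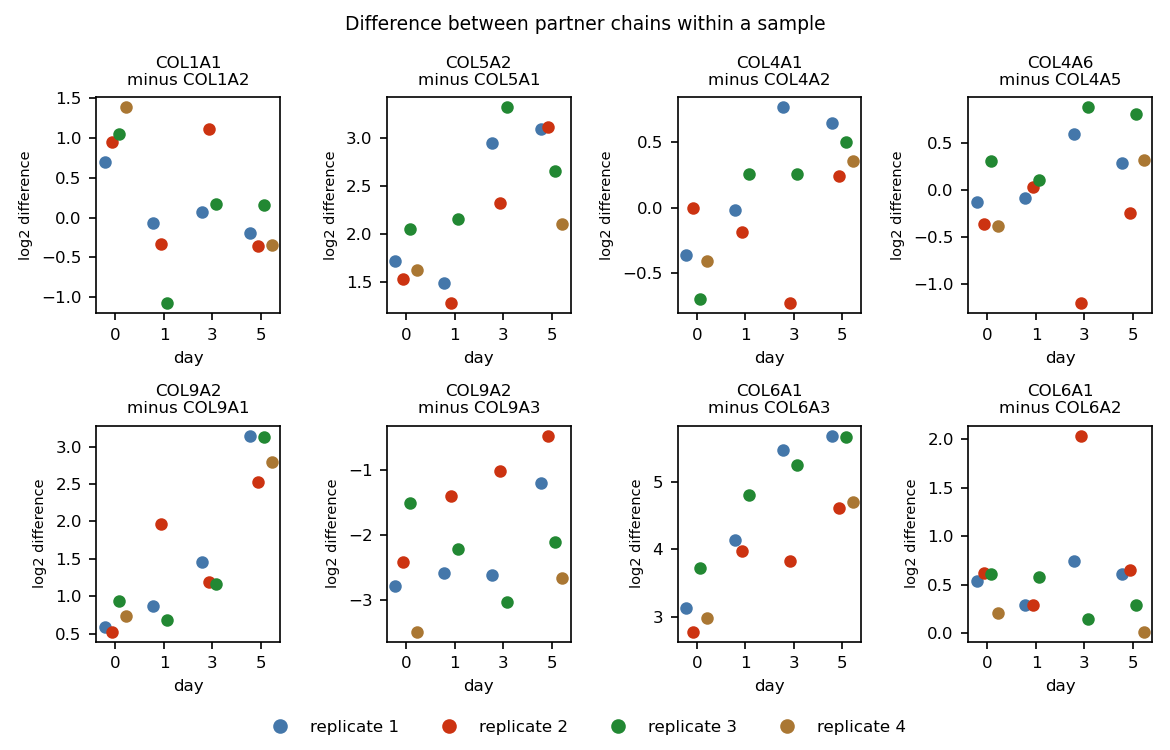
Difference in log2 intensity between chains of 1 collagen type within each sample (vertical axis, own scale per panel) at days 0, 1, 3 and 5, with 1 point per sample coloured by replicate number. The day 5 points lie apart from the day 0 points for COL1A1 minus COL1A2, COL5A2 minus COL5A1, COL4A1 minus COL4A2, COL9A2 minus COL9A1 and COL6A1 minus COL6A3, and overlap them in the other 3 panels.

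Genes that act on collagen chains were counted at day 5 against day 0 from lists of known partners. Of 18 measured genes for chain modification and folding, 2 were called higher and 0 lower, with a median difference of 0.04. P4HA2, a catalytic subunit of the prolyl 4-hydroxylase that stabilises the triple helix, rose by 0.98 ± 0.22 (adjusted p 0.0202). P3H2, a prolyl 3-hydroxylase that acts chiefly on type IV collagen, rose by 2.85 ± 0.68 (adjusted p 0.0271). P4HA1, the other main subunit, differed by 0.98 ± 0.27 (adjusted p 0.0505), and its adjusted p was 0.0280 without day 3 replicate 2. SERPINH1, the collagen chaperone, differed by 0.07 ± 0.46 (adjusted p 0.962). These counts stand against 2.56% of all rows called higher and 2.89% called lower.

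Of 20 genes for export, propeptide cleavage and crosslinking, 0 were called higher and 1 lower. PCOLCE, which speeds the cleavage of fibrillar procollagens, fell by 1.36 ± 0.20 (adjusted p 0.00173). The crosslinking enzyme LOX differed by 1.34 ± 0.66 (adjusted p 0.336). None of 10 collagen receptors passed, the largest differences being those of the integrin chain ITGA11 at 1.17 ± 0.46 (adjusted p 0.195) and of the uptake receptor MRC2 at 0.99 ± 0.69 (adjusted p 0.545).

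Of 14 basement membrane partners, 0 were called higher and 1 lower. LAMA2, the laminin chain of muscle and nerve, fell by 0.78 ± 0.21 (adjusted p 0.0444). LAMC3, a laminin gamma chain, differed by -1.55 ± 0.48 (adjusted p 0.0863), and its adjusted p was 0.0203 without day 3 replicate 2. LAMA1, the laminin alpha chain of embryonic basement membranes, differed by 1.07 ± 0.48 (adjusted p 0.282) and NID1, which links laminin to type IV collagen, by -1.07 ± 0.54 (adjusted p 0.348).

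Of 19 fibril partners, 2 were called higher and 1 lower. LUM, a small proteoglycan that spaces fibrils, rose by 4.57 ± 0.71 (adjusted p 0.00241), from a mean of 4.18 to 8.74. MATN3, a matrilin of the cartilage matrix that binds type IX collagen, rose by 2.19 ± 0.28 (adjusted p 0.000802). THBS2, a matrix thrombospondin, fell by 1.65 ± 0.19 (adjusted p 0.000545).

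Marker lists of other cell types were set beside these results. Their counts of calls at day 5 stand against 2.56% of all rows called higher and 2.89% called lower. Of 10 measured fibroblast or mesenchyme markers, 5 were dim, 1 was called higher at day 5 (LUM) and 1 lower (THY1, which stem cells also carry). Of their differences, 8 of 10 were above 0, with a median of 0.50. Their summed intensity ran from 3756 to 5352 at day 0, 2587 to 3371 at day 1, 2047 to 3512 at day 3 and 1600 to 3751 at day 5. Their mean log2 intensity, in which dim markers weigh as much as bright ones, tended higher at day 5, with 5.91 to 6.45 at day 0, 5.71 to 5.96 at day 1, 6.19 to 6.58 at day 3 and 6.11 to 7.25 at day 5. It was highest in day 5 replicate 2, where 30 collagens were lowest, and 6.33 in day 0 replicate 4, where 25 collagens were highest. Of 9 cartilage markers, 4 were called higher, namely MATN3, HAPLN1 (4.21 ± 0.83, adjusted p 0.00964), SOX5 (2.00 ± 0.33, adjusted p 0.00371) and COL9A2 itself. Differences were above 0 for 5 of the 9, with a median of 0.40. CNMD, a cartilage glycoprotein, fell by 4.24 ± 0.91 (adjusted p 0.0156). The cartilage regulator SOX9 differed by -1.19 ± 0.57 (adjusted p 0.318) and the proteoglycan ACAN by -3.05 ± 0.86 (adjusted p 0.0594).

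Parietal and visceral extraembryonic endoderm, the former a rich source of type IV collagen, was followed by 7 measured markers, of which 2 were dim and 1 was called higher at day 5. Their mean log2 intensity was 6.83 to 7.22 at day 0, 6.96 to 7.16 at day 1, 7.07 to 7.42 at day 3 and 7.67 to 8.05 at day 5, so day 5 lay above all earlier samples. Their summed intensity was 1694 to 2598 at day 0, 1483 to 2617 at day 1, 1255 to 3348 at day 3 and 3085 to 7024 at day 5. Of their day 5 differences from day 0, 5 of 7 were above 0, with a median of 0.34. The called marker was the apolipoprotein APOA1, which rose by 4.37 ± 0.36 (adjusted p 0.000174) and weighs on the list mean. The list's laminin chain LAMB1 differed by 0.10 ± 0.58 (adjusted p 0.960), and SOX7 by -0.17 ± 0.49 (adjusted p 0.903). Of 6 mesoderm markers 1 was called higher (HAND1) and 1 lower (KDR), of 9 trophoblast markers 2 were called higher (HAND1, held by both lists, and GATA3), and of 7 neural markers 1 was called higher (PAX6). The part of these cell types in the collagen values was not tested.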

How the data were processed

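RNA of 14 biological samples was measured on 16 Human Exon 1.0 ST arrays. The authors deposited linear intensity values summarised per gene, with the build hg18 per the submitters' processing notes. Their summarisation and their normalization were not given in the sources used here. These values ran from -0.273 to 30307.1 with array medians of 245.1 to 246.3, and 636 values were below 0. Precision is limited by the number of arrays, since arrays have no depth.

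Values were taken to log2 after adding a pseudocount of 1, and arrays of 1 sample were averaged with avearrays. Gene symbols came from the platform annotation. All 4 groups were fitted together in R 4.3.3 with limma 3.58.1, using lmFit and then eBayes (10 residual and 3.00 prior degrees of freedom), with Benjamini-Hochberg adjustment over 18495 rows and a threshold of 0.05. With changes of known size put in, the fit was tested on simulated data. Promoter windows were RefSeq's on GRCh38.p14, and no coordinates were converted. Figures were drawn with matplotlib 3.10.9 and tables made with pandas 2.3.3 and numpy 2.4.6 under Python 3.11.15.

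The members, gene lists, chain pairs and naming rule were chosen with earlier results of these data known. Genes are described in full if called in any comparison, with all samples or without day 3 replicate 2, if their groups did not overlap with a difference of 1 or more at day 5, or if they are a partner chain of such a gene. COL8A1, COL12A1, COL13A1, COL22A1 and COL23A1 at day 1 or day 3 were singled out after their values were seen. From each partner list, called members (at most 4) or the 2 largest differences are named, with SERPINH1, LOX, LAMA1, LAMC3, NID1 and P4HA1 added after their values were seen. Replicate numbers were not used as a block, since no label ties same-numbered samples together. The alternatives were technical arrays handled otherwise, replicate block, quantile normalization, only the groups compared, no dim rows, median centring, robust eBayes with trend, array weights, a pseudocount of 16, rows of 1 symbol and samples left out.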

Additional observations from a re-analysis of the deposited data

Results flagged for a closer look

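In groups of 4 samples, Dixon's test at its usual critical value was applied to the 76 day 0 and day 5 value sets of the 38 named collagens, and 6 had a sample far from the other 3. Chance marks about 1 in 20 such sets. In 4 of the 6 the sample was day 0 replicate 4. There COL12A1 had a log2 intensity of 9.96, against 8.34 to 8.60 in the other day 0 samples. COL4A1 was at 10.33 in it, against 8.92 to 9.14. COL5A2 was at 10.45, against 8.99 to 9.23, and COL8A1 at 10.19, against 8.11 to 8.37. The other 2 were in day 5 replicate 2, where the dim COL10A1 was at 1.83, against 6.53 to 6.89, and the dim COL6A5 at 6.52, against 5.49 to 5.66. The cause of these values was not tested.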

How the results depend on the processing

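No call changed its sign under any alternative run. Over the alternatives, 129 of all 3156 gene differences and 12 of all 160 chain pair changes took the other sign, none of them called in either fit. The pairs were COL11A1 minus COL11A2 (0.09, down to -0.58 without day 5 replicate 4), COL5A1 minus COL5A3 (0.65, and -0.15 without day 5 replicate 4), COL6A1 minus COL6A2 (-0.10, and 0.02 without the same sample) and COL4A3 minus COL4A4, which was near 0. COL9A2, COL21A1 and COL14A1 were past the test at day 5 against day 0 under all 14 other settings and all 8 fits without 1 of the samples compared. The number of collagens called depended on replicate 2 of days 3 and 5 and on how samples were weighted. Without day 3 replicate 2, 4 were called at day 3 against day 0 (3.19% of all rows). At day 5, 7 were called against day 0 (8.73%) and 5 against day 1 (6.11%). These counts stood in place of 0, 4 and 3. Without day 3 and day 5 replicate 2 together, they were 8 (5.72% of all rows), 14 (9.92%) and 15 (8.13%), and 1 at day 1 against day 0 (0.66%) in place of 0. Array weights, whose estimation stopped before convergence, gave 9 collagens at day 1 (13.7% of all rows), 13 at day 3 (15.1%) and 15 at day 5 (16.2%), all against day 0, and 24 between days 1 and 5 (34.6%). With the replicate block, 7 were called at day 5 against day 0 (3 higher, 4 lower, 7.83% of all rows), adding COL1A1, COL25A1 and 1 row with several symbols. It called 0 at day 1 (0% of all rows) and 0 at day 3 (0.00541%) against day 0, and 3 between days 1 and 5 (4.01%). The evidence that replicate numbers pair the samples was mixed. Deviations from the group means correlated over 0.1 in 10 of 19 same-numbered pairs (median 0.12, range -0.28 to 0.65) and in 21 of 54 other pairs (median -0.06). Replicate 2 of days 1, 3 and 5 correlated at 0.51, 0.51 and 0.65 and replicate 3 at 0.37, 0.43 and 0.56, while replicate 1 ran from -0.15 to 0.19. Of 14 samples, 8 correlated best with their own number. With only the 2 groups in the fit, 1 was called at day 5 against day 1 (2.15% of all rows). Leaving out each sample in turn called 0 collagens at day 1 (0 to 0.249% of all rows) and 0 to 4 at day 3 (0 to 3.19%), both against day 0. At day 5 it called 3 to 7 against day 0 (2.97% to 8.73%) and 1 to 5 against day 1 (0.919% to 6.11%). The other alternatives kept the counts within 1.5 times. The chain pair alternatives (a pseudocount of 16, quantile normalization and leaving out each sample) were added after seeing the data. For the 9 dim members, signal near background and the pseudocount limit what a difference on the log2 scale can show.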
